A study of Homo sapiens with 6 samples.

Results

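The 43 genes described here encode the machinery that copies DNA in S phase: the proteins that license replication origins, the helicase and its activators, the sliding clamp and its loader, DNA polymerases, single-strand binding proteins, enzymes of nucleotide supply and the factors of S-phase entry. They were listed by name from their textbook roles, and no measured value enters the rule, although earlier results of these data were known when the list was made. They are 43 of the 60651 gene identifiers counted. All 43 were among the 29086 genes tested, with at least 196 counts in every library.

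RNA was measured in SK-N-AS cells, a neuroblastoma line without amplification of MYCN, which carried a stable tetracycline-repressor system (pcDNA6/TR) and an inducible MYCN transgene and were kept as single clones under G418 and blasticidin. In the MYCN-induced group, 3 cultures received tetracycline for 5 d (120 h). The Control group comprised 3 cultures of the same cells at 120 h, labelled ETOH, so both groups carried the transgene. Libraries were made from total RNA after depletion of ribosomal RNA, and no cells that received tetracycline without the transgene were analysed here, so MYCN and tetracycline cannot be told apart. How many clones the 6 cultures came from is not stated in the labels.

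Replication origins are licensed in G1 when ORC, CDC6 and CDT1 load the MCM2-7 helicase onto DNA. At the start of S phase CDC45 and the GINS complex join MCM2-7 to form the active helicase, the clamp loader RFC places PCNA rings on the primed template, and polymerases alpha, delta and epsilon synthesise DNA. Many of these genes are transcribed under E2F transcription factors, which cyclin-dependent kinases release from RB, and MYC proteins are known to promote entry into S phase.

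Promoter sequences are shown for 4 of these genes, because many genes of the group are known for E2F elements near their starts. Whether such elements bear on the differences between libraries given further on was not tested. RefSeq promoter windows on GRCh38.p14, from 250 bases before to 50 bases after each gene's start, were found for 36 of the 43 genes. The genes without an entry were MCM4, MCM5, GINS4, POLD3, RPA2, RPA3 and CCNE2. RRM2 (chr2:10122489-10122788, plus strand) had the widest range among MYCN-induced libraries, MCM3 (chr6:52284693-52284992, minus strand) had the narrowest range of the genes with a window, PCNA (chr20:5126573-5126872, minus strand) had the highest level, and RFC4 (chr3:186806433-186806732, minus strand) was called higher when MYCN-induced replicate 3 was left out. Capitals mark an E2F-type core, which is TTGGCGC or a variant of it with other inner letters, that is TTCCCGC as the second form, TTCGCGC as the third form and TTGCCGC as the last form, on either strand:
RRM2: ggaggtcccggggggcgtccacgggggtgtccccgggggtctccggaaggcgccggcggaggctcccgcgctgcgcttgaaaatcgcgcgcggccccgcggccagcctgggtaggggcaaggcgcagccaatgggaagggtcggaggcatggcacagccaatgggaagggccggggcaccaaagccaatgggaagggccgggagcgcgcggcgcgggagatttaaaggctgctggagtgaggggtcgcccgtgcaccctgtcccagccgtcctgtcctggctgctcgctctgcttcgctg
MCM3: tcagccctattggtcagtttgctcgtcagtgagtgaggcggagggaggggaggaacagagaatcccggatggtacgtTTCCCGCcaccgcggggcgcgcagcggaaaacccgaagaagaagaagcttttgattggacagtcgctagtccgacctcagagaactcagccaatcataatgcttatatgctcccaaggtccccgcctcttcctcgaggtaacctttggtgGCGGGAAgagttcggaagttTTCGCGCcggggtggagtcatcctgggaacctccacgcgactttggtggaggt
PCNA: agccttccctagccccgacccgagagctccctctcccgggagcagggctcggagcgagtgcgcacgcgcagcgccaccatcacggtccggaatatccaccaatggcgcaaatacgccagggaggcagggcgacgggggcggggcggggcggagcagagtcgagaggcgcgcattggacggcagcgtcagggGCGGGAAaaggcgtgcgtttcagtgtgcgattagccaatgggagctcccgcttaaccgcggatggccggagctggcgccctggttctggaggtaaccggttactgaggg
RFC4: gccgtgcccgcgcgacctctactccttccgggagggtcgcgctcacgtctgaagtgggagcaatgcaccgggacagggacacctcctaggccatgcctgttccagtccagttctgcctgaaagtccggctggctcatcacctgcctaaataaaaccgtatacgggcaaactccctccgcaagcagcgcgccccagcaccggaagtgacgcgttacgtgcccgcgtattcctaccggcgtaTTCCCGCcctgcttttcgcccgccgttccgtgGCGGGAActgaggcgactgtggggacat
The MCM3 window held 3 such cores, that of RFC4 held 2, that of PCNA held 1 and that of RRM2 held none. RFC4 was chosen among the genes called without MYCN-induced replicate 3 whose window held a core. That it has a core was thus fixed by the choice. MCM10, also called in that fit, had no core in its window. Across the group, 28 of 36 windows (77.8%) held at least 1 core, against 13.0% of the 35116 promoter windows of the same length in the RefSeq table. The E-box CACGTG, the letters that MYC and MAX dimers are known to bind, was found in the windows of MCM2, MCM7, FEN1 and RPA1, which is 4 of 36 (11.1%), against 7.3% of all windows. In 0 of the 36 windows did an E-box match overlap a core match. Such matches describe the sequence and do not show that a factor was bound, and the windows compared were not matched for base composition.

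Depth ranged from 64500589 to 102249336 counts per library, and mitochondrial genes took 11.9 to 14.2% of the counts. MYCN itself was at 30.3, 35.5 and 32.4 CPM (counts scaled to a common library size, with TMM factors) in the Control libraries and at 211, 221 and 199 CPM in the MYCN-induced libraries, with a log2 fold change of 2.68 (SE 0.08, adjusted p = 4.155e-05, edgeR). MYCN-induced replicate 3 stood apart from the other libraries, at 69.1 on the first principal component (44.8% of the variance) against 14.4 and 13.1 for the other MYCN-induced libraries and -40.3 to -25.9 for the Control libraries. The neuroblastoma factors HAND2 (349 to 559 CPM) and GATA3 (99.9 to 144 CPM) were present, whereas the T-cell gene CD3E was at 0. The general leukocyte gene PTPRC was at 1.19 to 2.07 CPM, and the epithelial keratin KRT8 was at 87.2 to 143 CPM. The markers CD68, EPCAM, PECAM1, CDH5, ALB, HBB and GFAP, of other cell types, did not exceed 5.40 CPM.

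With 3 libraries in each group, none of the 43 replication genes was called higher or lower at an adjusted p of 0.05 (edgeR quasi-likelihood test with Benjamini-Hochberg adjustment), where 1.02% of all tested genes were called higher and 2.38% lower. At an unadjusted p of 0.05 the counts were also 0 and 0, beside 8.13% higher and 10.6% lower over all genes, and DESeq2 gave 0 and 0 at both levels. The median log2 fold change of the group was -0.0006, beside -0.0004 over all tested genes, and 21 members lay above 0 and 22 below. Single members ranged from -0.19 (RRM2) to 0.38 (CDT1), and 40 of 43 lay within 0.2 of 0 on the log2 scale. The 95% interval of the difference, taken gene by gene, lay between -1 and 1 for all 43 members and between -0.5 and 0.5 for 31. In these bulk libraries, fewer cells in S phase and less RNA of these genes per cell cannot be told apart.

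The absence of calls went with libraries that moved in opposite directions. Relative to the mean of the Control libraries, the median of the 43 genes was 0.12 higher on the log2 scale in MYCN-induced replicate 1, 0.15 higher in replicate 2 and -0.33 in replicate 3, whereas the Control libraries lay at -0.01, 0.01 and 0.00. In MYCN-induced replicate 1, 28 of 43 genes lay above all 3 Control libraries, where 31.2% of all genes did, and in replicate 2 the number was 34, where 32.1% of all genes did. In replicate 3, 37 of 43 lay below all 3 Control libraries, where 37.4% of all genes did. The full combination, replicates 1 and 2 above and replicate 3 below every Control library, was met by 25 of 43 members (58.1%), beside 4.95% of all tested genes. None had all 3 MYCN-induced libraries above the Control libraries and none had all 3 below, beside 11.5% and 14.7% of all genes. Replicate 2 exceeded replicate 3 for all 43 genes, where 50.8% of all tested genes did. Replicate 1 exceeded replicate 3 for 42, with MCM5 as the exception, where 50.5% of all tested genes did. The median range of the 43 genes among the MYCN-induced libraries was 0.541 on the log2 scale, compared with 0.084 among the Control libraries. Such ranges over all tested genes are not given here.

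**Figure D1:**
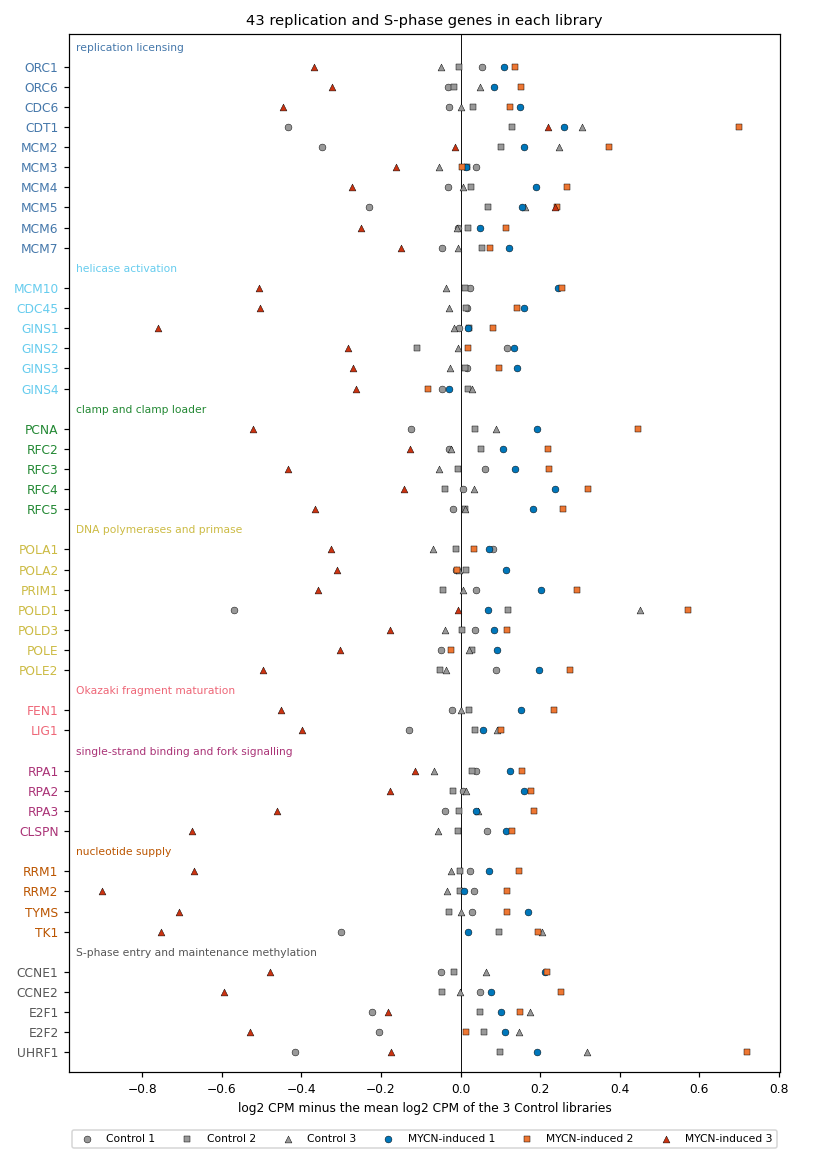
Each row is one of the 43 genes, grouped by role, and each point is one library placed by its log2 CPM minus the mean log2 CPM of the 3 Control libraries. MYCN-induced replicate 3 (red triangles) lies to the left of every Control library for 37 genes, while replicates 1 and 2 (blue circles, orange squares) both lie to the right of every Control library with replicate 3 to the left for 25 genes.

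Levels per gene length give the background against which these shifts occurred. In Control cells, PCNA, the sliding clamp that holds polymerases on DNA, had the highest level, at 64.9 ± 4.91 CPM per kilobase of exon (SD, n = 3). The helicase subunits MCM7 (55.8 ± 1.95) and MCM3 (50.8 ± 1.68) followed, with FEN1, the flap nuclease of lagging strands, at 36.2 ± 0.556 CPM per kilobase. Within the MCM2-7 ring, whose 6 subunits assemble in equal numbers, Control means ran from 12.1 ± 1.66 CPM per kilobase for MCM5 and 16.7 ± 3.41 for MCM2 through 21.6 ± 0.231 for MCM6 and 24.0 ± 0.473 for MCM4 to those of MCM3 and MCM7. The Control libraries of MCM5 and MCM2 overlapped, as those of no other neighbouring pair of ring subunits did. Within each Control library MCM2 was the higher, at 12.95, 17.67 and 19.57 against 10.22, 12.58 and 13.42 CPM per kilobase. CDT1, the loading factor that is destroyed in S phase, was at 2.36 ± 0.589 CPM per kilobase and the transcription factor E2F2 was lowest, at 0.616 ± 0.0761. Along the whole order, Control libraries overlapped between neighbours in 27 of 42 pairs, so the ranges alone do not set the order there. The genes were measured in the same libraries, and differences between neighbours within each library were not tested. Exon length here is the union of all annotated exons of a gene, which understates the level of a gene whose long or intron-retaining isoforms are little used.

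**Figure D2:**
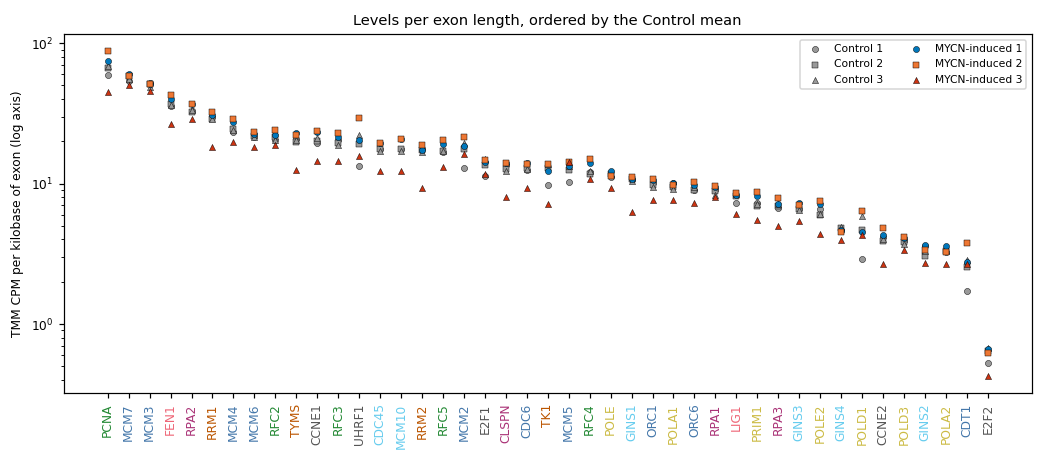
The vertical axis is the level in CPM per kilobase of exon on a log scale, and the horizontal axis lists the 43 genes by their Control mean, from PCNA (64.9) to E2F2 (0.616). Points are the 6 libraries, and gene names are coloured by role as in the plot of the members by library. The order spans a far wider range than the differences between libraries within any gene.

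Among the 10 licensing genes, median positions relative to the Control mean were 0.13 in MYCN-induced replicate 1, 0.14 in replicate 2 and -0.21 in replicate 3 on the log2 scale. CDC6, the loader ATPase, showed the pattern of most of the group, with 65.8, 68.6 and 67.2 CPM in Control libraries and 74.5, 73.2 and 49.3 CPM in MYCN-induced libraries. ORC1, the largest subunit of the origin recognition complex, had 31.8, 30.5 and 29.5 CPM against 33.0, 33.7 and 23.7 CPM. Replicates 1 and 2 thus lay above, and replicate 3 below, all Control values for both loading factors.

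CDT1 had the highest log2 fold change of the group, but its Control libraries were far apart, at 4.72, 6.98 and 7.88 CPM, and the MYCN-induced libraries had 7.64, 10.4 and 7.43 CPM. Only replicate 2 lay above the Control range, and the log2 fold change of 0.38 (SE 0.21, 95% interval -0.11 to 0.87) gave an adjusted p of 0.392 (edgeR). The log2 fold change of CDT1 was 0.19 without Control replicate 1, 0.21 without MYCN-induced replicate 2 and 0.47 without MYCN-induced replicate 3. MCM5 differed from the rest of the group: its Control libraries had 74.3, 91.5 and 97.5 CPM and its MYCN-induced libraries had 97.0, 103 and 103 CPM, so that it was the only member with replicate 3 above all Control libraries. Its log2 fold change was 0.20 (SE 0.10, 95% interval -0.03 to 0.44), and its adjusted p of 0.343 (edgeR) was the smallest of the 43. Without Control replicate 1 the log2 fold change of MCM5 was 0.092.

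MCM3 had the lowest log2 fold change of the licensing genes, -0.05 (SE 0.07), and a narrow interval of -0.21 to 0.12. Its Control values were 190.1, 187 and 178 CPM and its MYCN-induced values were 187, 186 and 165 CPM, of which only replicate 3 left the Control range. MCM4, a subunit of the same ring, had 164, 170.2 and 168 CPM against 191, 201 and 138 CPM, and MCM6 had 89.1, 90.6 and 88.9 CPM against 92.6, 97.0 and 75.3 CPM. The ring subunits therefore shifted unequally in replicate 3, from -0.27 for MCM4 to 0.24 for MCM5 on the log2 scale relative to the Control mean.

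Among the 6 genes that activate the helicase, all lay below every Control library in replicate 3, with a median of -0.39. MCM10, which binds the helicase as it starts to unwind, was at 96.4, 95.6 and 92.4 CPM in Control libraries and at 112, 113 and 66.7 CPM in MYCN-induced libraries. The log2 fold change over all 6 libraries was 0.04 (SE 0.18, 95% interval -0.39 to 0.46). Its 2 high libraries and its low library nearly cancelled in that mean.

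CDC45 followed with 52.9, 52.7 and 51.2 CPM against 58.4, 57.6 and 36.9 CPM. GINS1, one of the 4 GINS subunits, lay within its Control range in replicate 1, with 43.5, 44.2 and 43.1 CPM in Control libraries and 44.2, 46.2 and 25.7 CPM in MYCN-induced libraries, and had the lowest log2 fold change of this role, -0.17 (SE 0.20). GINS4 was the only member of the 43 with replicate 2 below all Control libraries, at 24.6 CPM against 25.2, 26.3 and 26.6 CPM. In counting without strand, 23.4% of the exon bases of GINS4 are shared with other annotated genes, among them GPAT4-AS1, so its counts are uncertain.

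All 5 genes of the clamp and its loader met the full pattern, with medians of 0.18 in MYCN-induced replicate 1, 0.26 in replicate 2 and -0.37 in replicate 3. PCNA was at 83.4, 93.3 and 96.7 CPM in Control libraries and at 104, 124 and 63.3 CPM in MYCN-induced libraries, a range of 0.97 on the log2 scale within the induced group. Its log2 fold change of 0.09 had an SE of 0.21. No Control library reached either of the high MYCN-induced values.

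RFC4, a small subunit of the loader, had the highest log2 fold change of this role, 0.15 (SE 0.12, 95% interval -0.12 to 0.43), from 36.0, 34.9 and 36.7 CPM in Control libraries and 42.2, 44.7 and 32.4 CPM in MYCN-induced libraries. RFC3 had the lowest, 0.00 (SE 0.16), with 58.6, 56.0 and 54.1 CPM against 61.8, 65.6 and 41.6 CPM. Both subunits were outside the Control range in every MYCN-induced library, in both directions.

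Polymerase and primase genes had medians of 0.09, 0.12 and -0.31 in MYCN-induced replicates 1, 2 and 3. PRIM1, the catalytic primase subunit, was at 20.8, 19.7 and 20.4 CPM in Control libraries and at 23.3, 24.8 and 15.8 CPM in MYCN-induced libraries, and 22.2% of its exon bases are shared with other annotated genes. POLE, the catalytic subunit of the leading-strand polymerase epsilon, had the lowest log2 fold change of this role, -0.07 (SE 0.10), from 186, 196 and 195 CPM to 205, 189 and 156 CPM. Only replicate 1 of POLE lay above the Control range, and only replicate 3 lay below it.

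POLD1, the catalytic subunit of polymerase delta, had the widest Control range of all 43 genes, with 14.3, 23.1 and 29.0 CPM, a span of 1.02 on the log2 scale. Its MYCN-induced libraries had 22.3, 31.5 and 21.1 CPM, and the log2 fold change of 0.18 (SE 0.26, 95% interval -0.42 to 0.77) was the highest of this role. Without Control replicate 1 this value was -0.07.

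The lagging-strand genes FEN1 and LIG1 lay below all Control libraries in replicate 3. FEN1 was at 78.3, 80.7 and 79.6 CPM in Control libraries and at 88.3, 93.5 and 58.2 CPM in MYCN-induced libraries, with a log2 fold change of 0.01 (SE 0.16). LIG1, the ligase that seals Okazaki fragments, had 47.8, 53.6 and 55.7 CPM against 54.4, 56.1 and 39.7 CPM and a log2 fold change of -0.07 (SE 0.13). Replicate 1 of LIG1 stayed within its Control range, unlike that of FEN1.

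RPA1, RPA2 and RPA3 form the complex that coats single-stranded DNA. RPA2 had the highest log2 fold change of this role, 0.06 (SE 0.10), with 65.3, 64.2 and 65.7 CPM in Control libraries and 72.6, 73.6 and 57.5 CPM in MYCN-induced libraries. CLSPN, the claspin adaptor of the fork checkpoint, had the lowest, -0.10 (SE 0.19), with 129, 123 and 119 CPM against 134, 135 and 77.3 CPM. Its position in replicate 3, -0.67 on the log2 scale relative to the Control mean, was lower than that of any RPA subunit, whose values ran from -0.46 to -0.12.

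The 4 genes of nucleotide supply had the lowest median of any role in replicate 3, -0.73, beside 0.05 and 0.13 in replicates 1 and 2. RRM2, the regulatory subunit of ribonucleotide reductase, was at 162, 158 and 155 CPM in Control libraries and at 159, 172 and 84.7 CPM in MYCN-induced libraries, the widest range in the induced group (1.02). It had the lowest log2 fold change of the 43, -0.19 (SE 0.23, 95% interval -0.72 to 0.34). RRM1, the catalytic subunit, had 125, 123 and 121 CPM against 129, 136 and 77.4 CPM, so both subunits were low in the same library.

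TYMS, which makes thymidylate, was at 50.2, 48.2 and 49.3 CPM in Control libraries and at 55.4, 53.4 and 30.1 CPM in MYCN-induced libraries, and its log2 fold change of -0.09 (SE 0.20) was the highest of this role. Of its exon bases, 47.5% are shared with ENOSF1 or TYMSOS, so the counts of TYMS are uncertain. TK1, the thymidine salvage kinase, had 18.0, 23.8 and 25.6 CPM against 22.5, 25.4 and 13.2 CPM. Its replicates 1 and 2 lay within the Control range, and its replicate 3 lay below it.

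The genes of S-phase entry and maintenance methylation had medians of 0.11, 0.22 and -0.48 in MYCN-induced replicates 1, 2 and 3. CCNE1, the cyclin E1 that activates CDK2, was at 48.2, 49.2 and 52.1 CPM in Control libraries and at 57.7, 57.9 and 35.7 CPM in MYCN-induced libraries. CCNE2 had 18.5, 17.3 and 17.8 CPM against 18.8, 21.2 and 11.8 CPM, with 37.1% of its exon bases shared with other genes, INTS8 among them. Both E-type cyclins thus met the full pattern.

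UHRF1, which guides DNA methylation to newly copied strands, had the highest log2 fold change of this role, 0.26 (SE 0.25, 95% interval -0.31 to 0.83). Its Control libraries had 68.8, 98.5 and 115 CPM, and its MYCN-induced libraries had 105, 151 and 81.5 CPM, so that only replicate 2 left the Control range. Without MYCN-induced replicate 2 the value was -0.01. E2F2 had the lowest, -0.12 (SE 0.19), from 2.90, 3.48 and 3.71 CPM to 3.62, 3.38 and 2.31 CPM, and E2F1, the other activating E2F listed here, stayed within its Control range in all MYCN-induced libraries, at 38.05, 39.4 and 31.3 CPM against 30.4, 36.7 and 40.1 CPM.

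**Figure D3:**
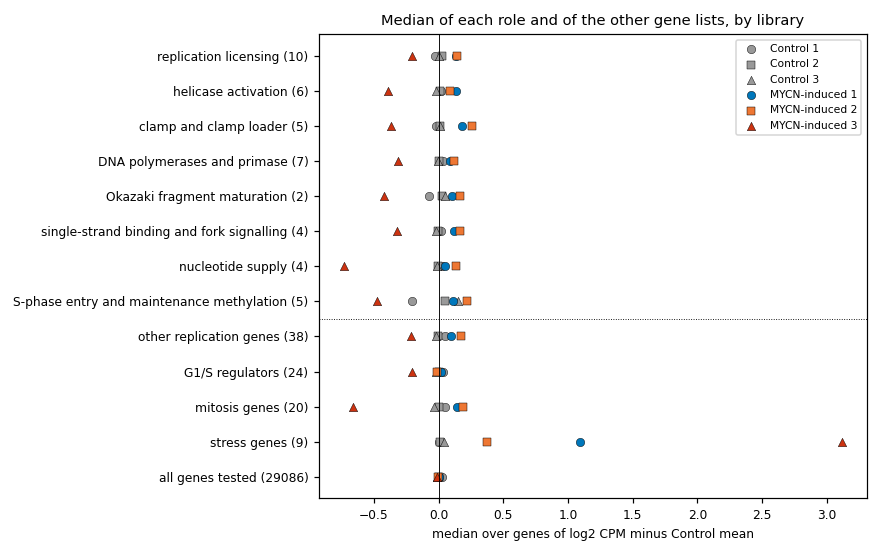
Each row is a group of genes with its number of tested genes, and each point is the median over those genes, in one library, of log2 CPM minus the Control mean. All 8 roles above the dotted line have MYCN-induced replicate 3 furthest left, from -0.21 for licensing to -0.73 for nucleotide supply, while the stress genes have it furthest right, at 3.12.

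Because MYCN-induced replicate 3 stood apart, the fold changes and the counts of called genes were also computed without it. Of the 43 genes, 42 then had a log2 fold change above 0, with GINS4 (-0.05) as the exception, and the median was 0.14. Genes called higher were MCM4 (log2 fold change 0.24, adjusted p = 0.0408), MCM10 (0.26, adjusted p = 0.0210), RFC4 (0.29, adjusted p = 0.0312) and RFC5 (0.23, adjusted p = 0.0458), by edgeR over 28797 genes. That is 4 of 43 higher and 0 lower, where 3.68% of all genes were called higher and 4.44% lower. At an unadjusted p of 0.05 in that fit 18 members were higher and 0 lower, where 12.3% of all genes were higher and 13.2% lower. Leaving out any one of the other 5 libraries gave 0 calls in either direction. Without MYCN-induced replicate 1, 12 members lay above 0 and 31 below, with a median log2 fold change of -0.068. Without MYCN-induced replicate 2, 5 lay above and 38 below, with a median of -0.093. The direction of the group thus depended on which MYCN-induced library was left out.

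**Figure D4:**
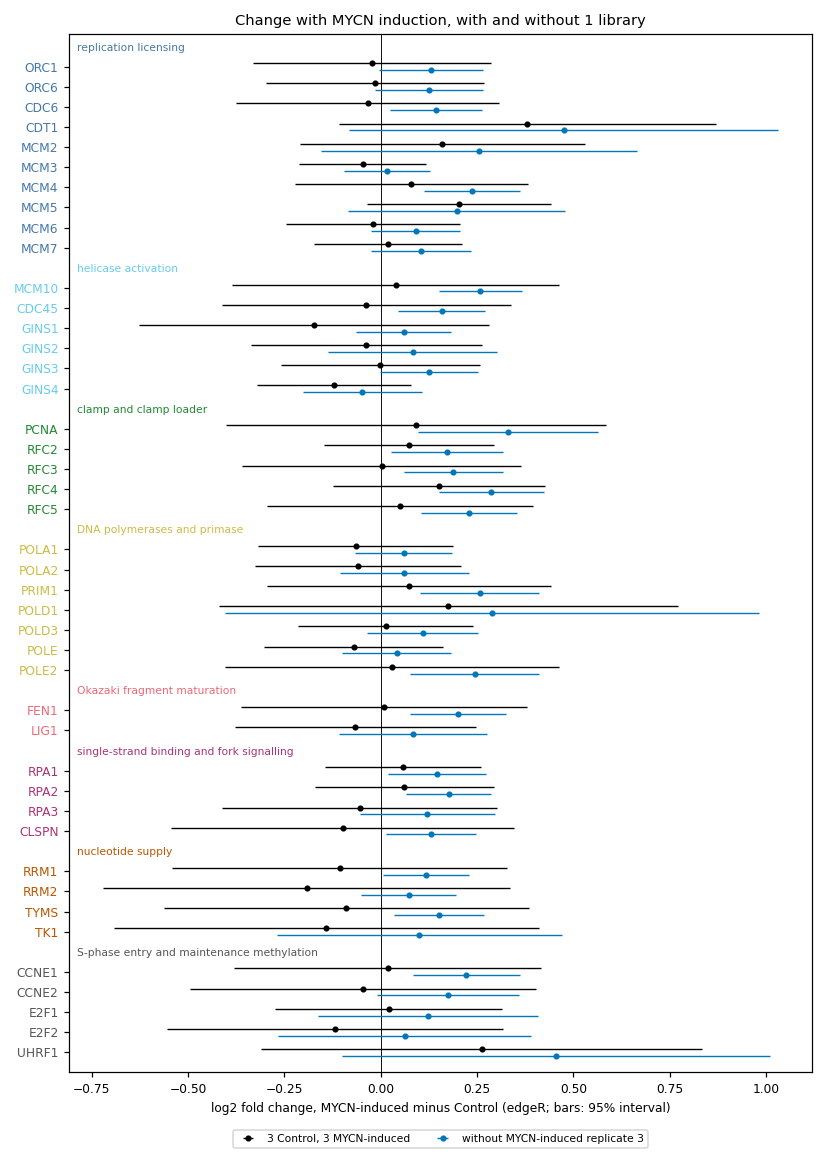
Points are log2 fold changes of MYCN-induced against Control for the 43 genes and bars are 95% intervals, in black over all 6 libraries and in blue without MYCN-induced replicate 3. Every black interval includes 0, whereas 18 blue intervals, among them those of MCM10 and RFC4, lie above it, where 12.3% of all genes were higher at an unadjusted p of 0.05 without that library.

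Other measurements also differed between the MYCN-induced libraries. Of 10 listed genes of the amino acid and stress response, 9 were tested, and their median relative to the Control mean was 1.09 in MYCN-induced replicate 1, 0.37 in replicate 2 and 3.12 in replicate 3 on the log2 scale. ASNS, asparagine synthetase, was at 15.8 to 16.9 CPM in Control libraries and at 53.9, 25.6 and 157 CPM in MYCN-induced libraries. All 9 lay above every Control library in replicate 3, where 33.6% of all tested genes did. In the same library 37 of the replication genes lay below, where 37.4% of all tested genes did. Mitochondrial genes took 14.2% of counts in that library, close to the 13.4 to 14.1% of Control libraries. In MYCN-induced replicates 1 and 2 they took 13.1% and 11.9%. The part of these measurements in the result was not tested.

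Genes of mitosis, which cycling cells express after S phase, showed the same order of libraries. Of 20 listed, all lay below every Control library in replicate 3 (median -0.66), where 37.4% of all tested genes did. The full pattern was met by 15, beside 4.95% of all tested genes. None was called with all 6 libraries (edgeR, DESeq2 also 0, and 0 at an unadjusted p of 0.05). Without replicate 3 CCNB1 and AURKA, a mitotic cyclin and a mitotic kinase, were called higher. That is 2 of 20 higher and 0 lower, where 3.68% of all genes were called higher and 4.44% lower.

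A further list held 38 genes of replication outside the 43, and none was called (edgeR and DESeq2, both 0, with 1 higher and 1 lower at an unadjusted p of 0.05 by edgeR and 2 and 1 by DESeq2). Their medians in MYCN-induced replicates 1, 2 and 3 were 0.10, 0.17 and -0.22. The full pattern was met by 16 of 38, beside 4.95% of all tested genes. DBF4, the activator of the CDC7 kinase that fires origins, had the highest log2 fold change, 0.41 (SE 0.20), from 54.6, 56.5 and 58.9 CPM to 76.4, 97.0 and 51.8 CPM. CDC7 itself had the lowest, -0.31 (SE 0.12, adjusted p = 0.219, edgeR), and all of its MYCN-induced libraries (57.0, 61.4 and 44.6 CPM) lay below its Control libraries (71.5, 66.7 and 63.5 CPM). The kinase and its activator thus stood at opposite ends of the list. DBF4 was at 0.62 without MYCN-induced replicate 3 and at 0.18 without replicate 2, and CDC7 was at -0.17 without replicate 3.

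Of these 38 genes, 3 had every MYCN-induced library above the Control libraries, beside 11.5% of all tested genes. CDC7 was the only 1 with every MYCN-induced library below, beside 14.7%. POLE3, an accessory subunit of polymerase epsilon, was among the 3, at 88.2, 90.9 and 77.7 CPM against 65.95, 72.3 and 72.6 CPM. Its log2 fold change was 0.28 (SE 0.08, adjusted p = 0.114, edgeR). WDHD1, a fork scaffold, had 0.20 (SE 0.14). At the low end, the histone chaperone ASF1B had -0.26 (SE 0.25) and the origin-firing factor TICRR had -0.17 (SE 0.18). Without replicate 3, DBF4, TOPBP1, WDHD1, POLE3 and DNA2 were called higher. That is 5 of 38 higher and 0 lower, where 3.68% of all genes were called higher and 4.44% lower.

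Of 26 regulators of the G1/S transition outside the 43, CCND2 and CDKN1C were near 0 and 24 were tested. CDKN1A, which encodes the CDK inhibitor p21, was the only one called, where 1.02% of all tested genes were called higher and 2.38% lower. It fell from 10.8, 11.7 and 11.2 CPM to 5.08, 4.94 and 7.87 CPM. Its log2 fold change was -0.91 (SE 0.18, adjusted p = 0.0411, edgeR). DESeq2 gave an adjusted p of 3.12e-04, and the replicate block gave 0.0339. The call was lost on leaving out any single library other than MYCN-induced replicate 3, with adjusted p from 0.0955 to 0.188, and all MYCN-induced values lay below all Control values. Without replicate 3 its log2 fold change was -1.16 (adjusted p = 0.00226, edgeR). In that fit CDK6, a kinase partner of D-type cyclins, was also called lower and CCNA2, the S-phase cyclin A2, higher. That made 1 of 24 higher and 2 lower, where 3.68% of all genes were called higher and 4.44% lower.

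CCND1, the cyclin D1 that activates CDK4 and CDK6, had 315, 352 and 363 CPM in Control libraries and 264, 290.1 and 215 CPM in MYCN-induced libraries, with a log2 fold change of -0.42 (SE 0.12) and an adjusted p of 0.0991 (edgeR). E2F8, a repressor of E2F targets, had -0.53 (SE 0.28), from 18.1, 16.8 and 15.2 CPM to 14.5, 13.8 and 6.35 CPM. In both genes the groups did not overlap, but neither passed the threshold. Of the 24 tested, 5 had all MYCN-induced values below all Control values, where 14.7% of all tested genes did. All MYCN-induced values lay above for 1, where 11.5% of all tested genes did. The highest values of this list belonged to the CDK inhibitors CDKN2B (0.41, SE 0.18) and CDKN2A (0.22, SE 0.13) and to the cyclin CCND3 (0.13, SE 0.16), and none of the 3 was called.

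Control libraries also differed among themselves in some members. For 8 genes (CDT1, MCM2, MCM5, POLD1, TK1, E2F1, E2F2 and UHRF1) the Control range exceeded 0.3 on the log2 scale, a limit chosen after the values were seen, and Control replicate 1 was the lowest Control library in all 8. MCM2, for example, had 61.0, 83.3 and 92.3 CPM. The exons of these 8 genes had a G+C content of 55.1 to 64.8% (median 59.1%), compared with 39.1 to 57.3% (median 47.3%) in the other 35. Across the 43 genes, the G+C content and the position of Control replicate 1 relative to the Control mean had a Spearman rho of -0.68, and the G+C content and the log2 fold change had a rho of 0.18. These are descriptions across genes measured in the same libraries, and genes are not independent replicates. The part of base composition in these values was not tested.

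**Figure D5:**
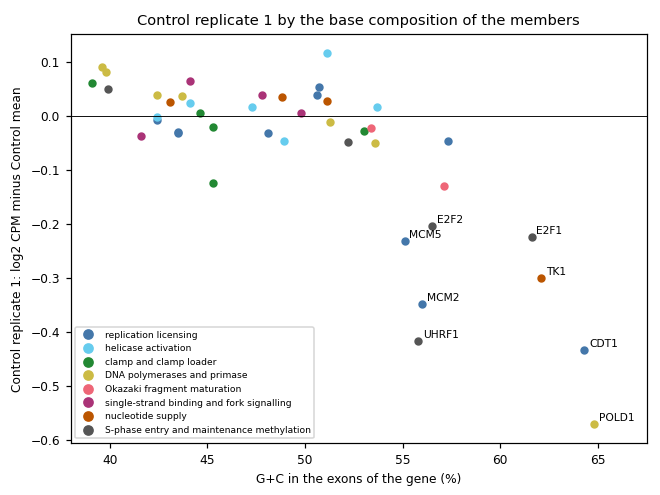
Each point is one of the 43 genes, coloured by role, with the G+C content of its exons in percent on the horizontal axis and its log2 CPM in Control replicate 1 minus the Control mean on the vertical axis. The 8 named genes, all at 55.1% or more, lie lowest, with POLD1 at -0.57.

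In all, 20 of 43 members share some exon bases with an annotated neighbour, and 6 share more than 20% (TYMS, POLA2, CCNE2, MCM2, GINS4 and PRIM1). POLA2, the B subunit of polymerase alpha, shares 39.4% and was at 18.2, 18.5 and 18.3 CPM against 19.9, 18.3 and 14.8 CPM. Named processed copies exist for 9 members, PCNA and RRM2 among them, whose reads may be lost where they match a copy equally well.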

How the data were processed

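RNA was measured in 3 Control and 3 MYCN-induced SK-N-AS libraries. The authors deposited estimated counts of read pairs per gene: per the file headers, unique STAR alignments were counted over exons with featureCounts v1.6.4, pairs overlapping several genes were shared in equal fractions, and no strand option was set. The submitters' processing notes name featureCounts 1.5.1, STAR 2.7.1a and GRCh38, and the methods give a strand option. Without strand, reads of overlapping genes on opposite strands cannot be told apart. Of the identifiers, 99.72% matched GENCODE release 44, used for names, and 92.67% of these had identical coordinates.

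Counts were rounded, and the 29086 genes that reached 10 counts in 3 or more libraries entered the quasi-likelihood test of edgeR 4.0.16 (R 4.3.3, TMM scaling, no replicate block, Benjamini-Hochberg, threshold 0.05). DESeq2 1.42.0 was an alternative. Log2 CPM used a prior count of 2. The procedure was tested on simulated data with 2-fold changes and no library that stood apart. That test does not bear on smaller changes such as those of the members. Whether libraries came from separate cultures rests on the study's description. Each p-value weighs the group difference against the spread between libraries of a group, estimated with information from all tested genes.

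The 43 members and all lists were chosen with earlier results of these data known. Named genes were all called genes, the highest and lowest log2 fold change in each role, the 5 widest ranges among MYCN-induced libraries, and the 3 highest and 3 lowest of the other replication and G1/S lists. Others (MCM5, CDC6, ORC1, MCM4, MCM6, CDC45, GINS4, PRIM1, RRM1, CCNE1, CCNE2, E2F1, MCM2, POLA2 and genes called without MYCN-induced replicate 3) were named after their values were seen.

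Some listed marker genes are not reported here.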

Additional observations from a re-analysis of the deposited data

How the results depend on the processing

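The finding that no member was called higher or lower was the same with library size scaling, upper quartile, RLE, DESeq2, a minimum of 100 counts per library, no minimum at all, the replicate block and adjusted p thresholds of 0.01 and 0.1. Leaving out single libraries gave 0 to 4 members higher, with the 4 without MYCN-induced replicate 3, and 0 lower in every case. The median log2 fold change ran from -0.09 (without MYCN-induced replicate 2) to 0.14 (without MYCN-induced replicate 3), and was -0.02 with the replicate block. The SD of the 3 MYCN-induced medians was 0.267. That SD includes replicate 3 itself, so it cannot be used to judge the shift on leaving that library out. Replicate numbers were not treated as pairs: deviations of same-numbered libraries correlated at 0.22, -0.02 and 0.07, and the labels state no shared culture or day. Other replication genes called ranged from 0 to 5, mitosis genes called from 0 to 2, and G1/S regulators called from 0 to 3 on leaving out single libraries, the highest each time without MYCN-induced replicate 3. G1/S regulators called were 0 at an adjusted p of 0.01 and 2 at 0.1. MYCN stayed called, from 2.63 to 2.74. The count of 25 members with the mixed pattern was 27 with library size scaling and 30 in TPM. It was 26 to 28 without single Control libraries. Leaving out a Control library can only narrow the Control range, so it could hardly lower this count. These alternatives were chosen after seeing the data, as were those for the mitosis genes. TPM moved the median of all genes by 0.15 in MYCN-induced replicate 2 and -0.22 in replicate 3.

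Some log2 fold changes near 0 changed sign under other settings, none of them with a call in the new direction, and the cause was not tested. With RLE they were ORC6 0.0005 and GINS3 0.016. With DESeq2 they were ORC6 0.0005 and GINS3 0.015. With library size scaling they were MCM7 -0.0087, RFC3 -0.020, POLD3 -0.015, FEN1 -0.013, CCNE1 -0.0025 and E2F1 -0.0049. With upper quartile scaling they were MCM7 -0.0084, RFC3 -0.025, POLD3 -0.016, FEN1 -0.017, CCNE1 -0.0064 and E2F1 -0.0035. With the replicate block they were MCM10 -0.0008, RFC3 -0.024, POLE2 -0.0063, FEN1 -0.021 and CCNE1 -0.014. Without the count filter they were GINS3 0.013. With the minimum of 100 counts they were RFC3 -0.012, POLD3 -0.0017 and FEN1 -0.0057. Leaving out single libraries gave these lowest and highest values: ORC1 -0.11 to 0.13, ORC6 -0.11 to 0.13, CDC6 -0.13 to 0.14, MCM3 -0.075 to 0.017, MCM4 -0.024 to 0.24, MCM6 -0.093 to 0.091, MCM7 -0.026 to 0.10, MCM10 -0.083 to 0.26, CDC45 -0.14 to 0.16, GINS1 -0.32 to 0.059, GINS2 -0.12 to 0.083, GINS3 -0.068 to 0.13, PCNA -0.12 to 0.33, RFC2 -0.0065 to 0.17, RFC3 -0.12 to 0.19, RFC5 -0.066 to 0.23, POLA1 -0.13 to 0.060, POLA2 -0.14 to 0.061, PRIM1 -0.052 to 0.26, POLD1 -0.065 to 0.42, POLD3 -0.042 to 0.11, POLE -0.15 to 0.041, POLE2 -0.11 to 0.24, FEN1 -0.12 to 0.20, LIG1 -0.16 to 0.084, RPA2 -0.0002 to 0.18, RPA3 -0.19 to 0.12, CLSPN -0.23 to 0.13, RRM1 -0.25 to 0.12, RRM2 -0.38 to 0.073, TYMS -0.23 to 0.15, TK1 -0.33 to 0.10, CCNE1 -0.094 to 0.22, CCNE2 -0.22 to 0.18, E2F1 -0.088 to 0.12, E2F2 -0.23 to 0.063, UHRF1 -0.011 to 0.45, ASF1B -0.49 to 0.014 and TICRR -0.29 to 0.035.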
